A study of Mus musculus with 16 samples.

Results

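The 9 genes described here belong to the coagulation and plasminogen system, and they were taken by symbol from a table of 47069 mouse genes: F10, F7, F3, F13a1, Tfpi, Plau, Plaur, Serpinb2 and Procr. The set was chosen by a measured value, because the increase of F10 with GSI was among the largest in these libraries, so the differences between GSI and DMSO that follow are a description of the 9 genes and support no claim about them. The cells were bone marrow-derived macrophages (BMMs) grown in L929-conditioned medium from C57BL/6 mice aged 8 to 10 weeks. All cells were primed overnight with IFNγ at 10 ng/mL and activated for 1 hr with LPS at 100 ng/mL together with immune complexes (ICs) of ovalbumin and rabbit IgG. One group received DAPT at 25 μM, a gamma-secretase inhibitor (GSI), and the other the vehicle DMSO at 0.01%, before and during activation. RNA-seq counts were available for 2 replicates per group as 4 columns each, and these were summed to 2 DMSO and 2 GSI libraries of 42694655 to 56932059 counts. Every library came from cells activated by LPS/ICs, so induction by the stimulus itself was not analysed here. No label says that the replicates were separate cultures or mice, so p-values measure the spread between these libraries, which may be technical.

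Blood clotting starts when tissue factor, the product of F3, binds factor VIIa on a cell surface. The complex activates factor X, which with factor V turns prothrombin into thrombin, and thrombin makes the fibrin that factor XIII crosslinks. The plasminogen system dissolves fibrin and clears matrix: urokinase (Plau) bound to its receptor (Plaur), or tissue-type activator (Plat), turns plasminogen into plasmin, and serpins inhibit the activators. The liver makes most circulating clotting factors, whereas monocytes and macrophages are a known source of tissue factor, urokinase and its receptor, and can express factors VII and X.

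The libraries carried the marks of macrophages. All 10 macrophage markers listed for the check, such as Csf1r and Adgre1, were above 3 counts in every library, which is the limit that a count of 0 allows and equals 0.0529 to 0.0697 CPM (counts per 1000000, with TMM-adjusted library sizes). That limit covers counting error only. Of these 10 markers 7 were lower and 1 higher with GSI at a false discovery rate (FDR) under 0.05 in edgeR. Over all tested genes that threshold called 21.9% lower and 19.0% higher. The 10 markers summed to 12720 and 12940 CPM with DMSO and 9933 and 10840 CPM with GSI. Hepatocyte markers summed to 0.300 to 0.511 CPM per library, and Ttr, Serpina1a and Ahsg had 0 counts throughout. Neutrophil, fibroblast, mast cell and lymphocyte markers summed to at most 1.43 CPM per list and library. The monocyte markers summed to 51.6 and 49.8 CPM with DMSO and 17.8 and 20.1 CPM with GSI, mostly from Ccr2, and the part of monocyte-like cells in the results that follow was not tested. In such bulk samples, fewer cells that express a gene and less RNA of it per cell cannot be told apart.

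The 9 genes differed widely in their level. Levels were compared between genes as CPM per kilobase of annotated exon. With DMSO, Plaur was highest at 97.5 and 104, followed by Plau at 62.4 and 75.8 and F3 at 65.3 and 67.2, whose libraries overlapped. Procr followed at 30.0 and 31.6. Tfpi lay at 3.08 and 2.89 and F10 at 1.17 and 1.22 on the same scale. F7, at 0.400 and 0.626, overlapped Serpinb2, at 0.455 and 0.653, at the low end. With GSI the order was different at the top and in the middle. Procr then led with 79.6 and 70.9 CPM per kilobase, above both GSI libraries of Plau (52.7 and 65.1), Plaur (48.1 and 56.0) and F3 (45.3 and 48.4), whose ranges overlapped pairwise in that order. F10 reached 10.8 and 9.49 and lay above Tfpi, at 2.89 and 2.91, whereas the order of these genes was the opposite with DMSO. F7 lay at 1.71 and 1.42 CPM per kilobase, above Serpinb2 at 0.484 and 0.560. F13a1 was lowest in both groups, at 0.0138 and 0 with DMSO and 0.00307 and 0.00902 with GSI.

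**Figure D1:**
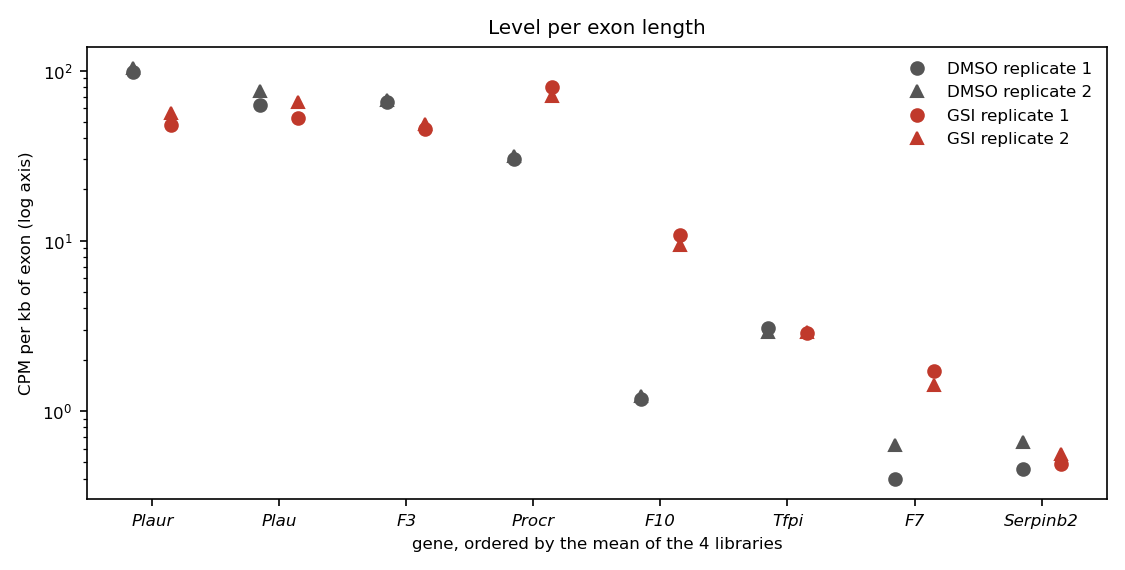
Level of 8 of the 9 genes per exon length, in CPM per kilobase on a log axis, for each of the 4 libraries (circles, replicate 1; triangles, replicate 2; grey, DMSO; red, GSI). Procr leads the order with GSI, and F10 lies below Tfpi with DMSO and above it with GSI. F13a1, near 0, is not drawn.

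The ninth gene, F13a1, which encodes the A subunit of the crosslinking enzyme factor XIII, was near the counting limit. The DMSO libraries held 4 and 0 counts and the GSI libraries 1 and 3, and it did not pass the filter on low counts, so it has no fold change here. The other 8 genes passed. F13a1 lies on chromosome 13 of GRCm38 (36867178 to 37050244) and was also the only one of the 9 whose exons overlap exons on the opposite strand, over 74 bases of Gm30489.

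Of the 8 genes tested, F10, F7 and Procr were higher and F3 and Plaur lower with GSI at an FDR under 0.05 (quasi-likelihood test of edgeR, Benjamini-Hochberg adjusted over 13211 genes). The same threshold called 19.0% of all tested genes higher and 21.9% lower. In these 5 genes the groups did not overlap: both GSI libraries lay above both DMSO libraries in 3 and below them in 2, which held for 35.8% and 34.8% of all tested genes. F10 and F7 also had a log2 fold change above 1.5, as did 0.742% of tested genes. A called decrease of that size occurred in 2.17% of tested genes, and the largest among the 8 was that of Plaur, at -0.95. The median log2 fold change of the 8 genes was -0.074, beside 0.015 for all tested genes. Tfpi, Plau and Serpinb2 did not pass the test.

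**Figure D2:**
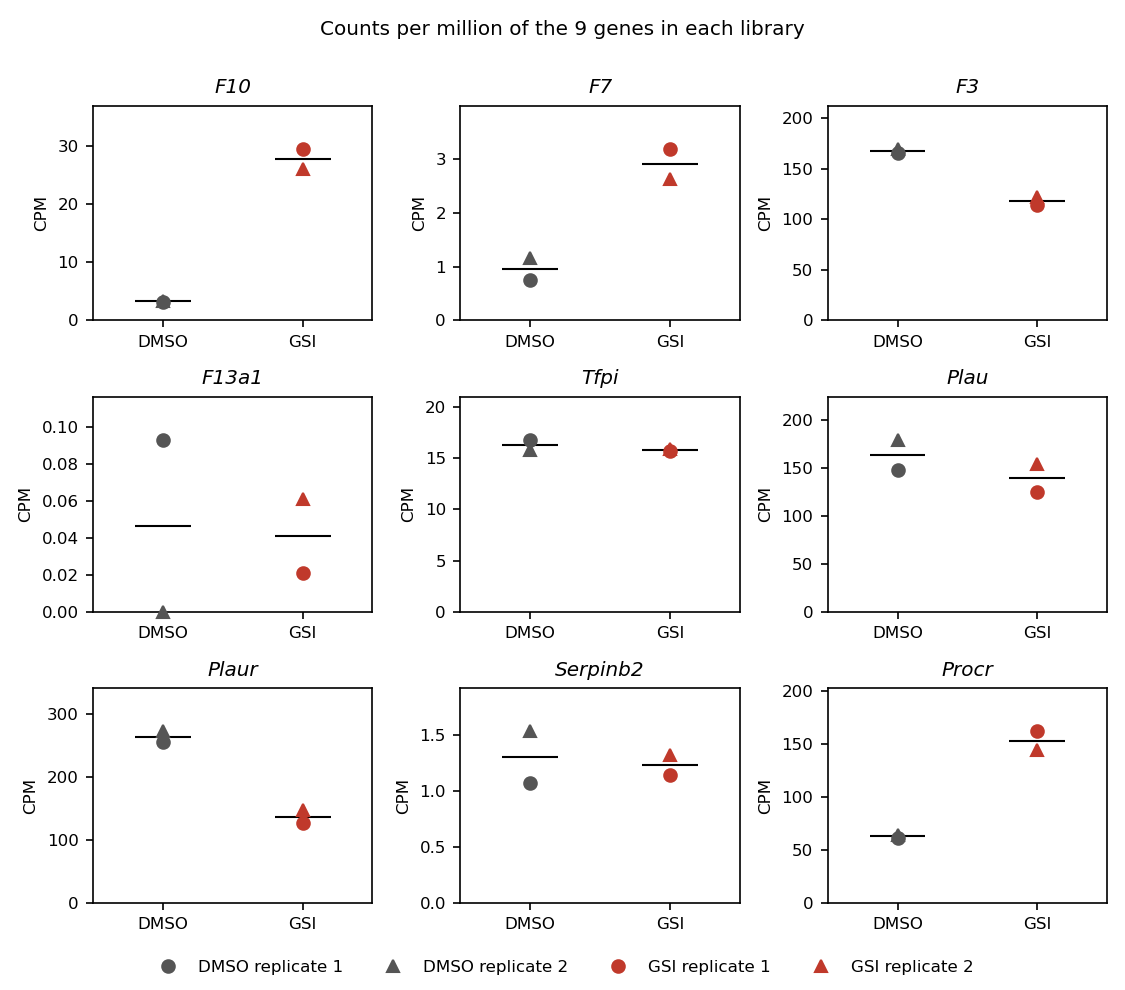
CPM of each of the 9 genes in each library, on linear axes that start at 0 and differ between panels (circles, replicate 1; triangles, replicate 2; horizontal lines, group means). The DMSO and GSI libraries are separate for F10, F7, F3, Plaur and Procr, and they overlap for F13a1, Tfpi, Plau and Serpinb2.

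F10 encodes factor X, the zymogen whose active form makes thrombin. The gene (ENSMUSG00000031444) lies on chromosome 8 of GRCm38 from 13037308 to 13056676. The DMSO libraries held 137 and 189 counts and the GSI libraries 1425 and 1280, or 3.18, 3.33, 29.5 and 25.9 CPM in the same order. Both GSI libraries were far above both DMSO libraries, which differed little from each other. The mean was 3.26 ± 0.104 CPM with DMSO and 27.7 ± 2.52 CPM with GSI (SD, n = 2), which gave a log2 fold change of 3.08 (SE 0.109) and an 8.48-fold higher level. Among the 10957 genes averaging at least 1 CPM this increase ranked 5, just after Il23r (3.09) and before Ubd (2.87), and it is the value through which the 9 genes were chosen. In fits that left out 1 library in turn it ranged from 2.99 to 3.18.

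F7 encodes factor VII, the protease that works with tissue factor. It (ENSMUSG00000031443) lies upstream of F10 on the same strand, from 13026034 to 13035809, and 1498 bases separate the annotated end of F7 from the start of F10. F7 had 32 and 66 counts in the DMSO libraries, against 154 and 130 in those with GSI, which corresponds to 0.744, 1.16, 3.19 and 2.63 CPM. The DMSO replicates were further apart than those of F10, but both stayed below both GSI libraries. Its log2 fold change was 1.57 (SE 0.213), with a 95% interval from 1.13 to 2.02. The estimate varied with single libraries: it was 1.32 without DMSO replicate 1 and 1.43 without GSI replicate 1, both under the size of 1.5, and 1.96 without DMSO replicate 2. Per exon length, the level of F10 was 2.91 and 1.95 times that of F7 in the DMSO libraries, against 6.30 and 6.70 times in those with GSI.

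The genes around this pair were examined up to 100 kb on either side. The annotation lists 10 other genes there, of which 3 were tested. Mcf2l, a guanine nucleotide exchange factor upstream of F7, had 106 and 132 counts in the DMSO libraries, against 185 and 189 in those with GSI. Mcf2l thus had a log2 fold change of 0.68 (SE 0.150, edgeR FDR = 0.00108), and 342 of its exon bases lie opposite exons of other genes. Pcid2 and Cul4a, downstream of F10, did not pass, with log2 fold changes of 0.16 (95% interval -0.01 to 0.34) and 0.04 (-0.11 to 0.19). Proz, which encodes the anticoagulant cofactor protein Z and is the next gene after F10, had 0 and 3 counts in the DMSO libraries, against 1 and 0 in those with GSI and was not tested. Among the 5 tested genes of this stretch the largest differences were those of F10 and F7.

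**Figure D3:**
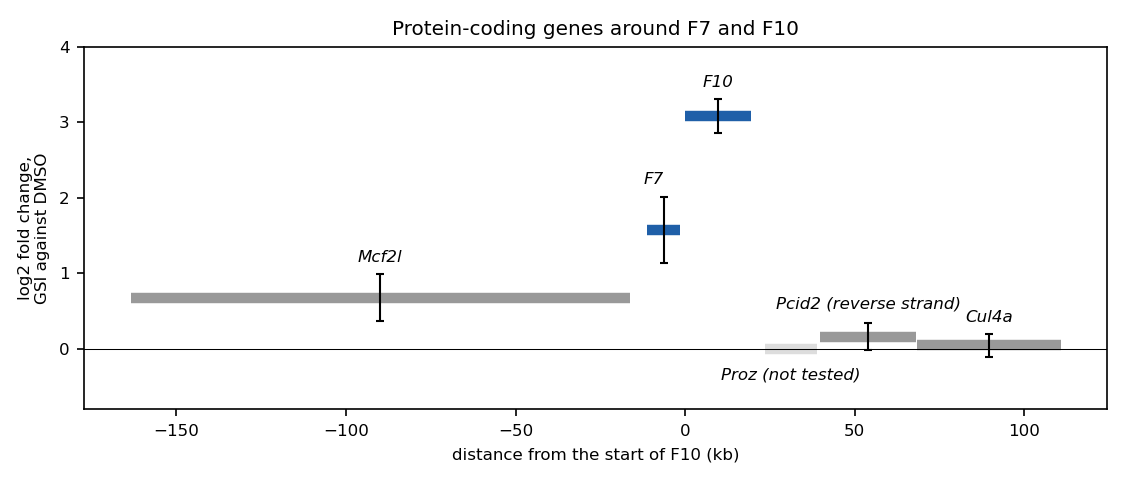
Log2 fold change (GSI against DMSO, vertical axis, with 95% intervals) of the protein-coding genes within 100 kb of F7 and F10, drawn as bars over their gene bodies by distance from the start of F10 in kb. F10 (3.08) and F7 (1.57) stand above Mcf2l (0.68), Pcid2 (0.16) and Cul4a (0.04); Proz was not tested and its pale bar at 0 carries no value.

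F3 encodes tissue factor, the membrane receptor of factor VIIa that starts coagulation. The gene (ENSMUSG00000028128, chromosome 3 from 121723537 to 121735048) was abundant, with 165 and 170 CPM with DMSO and 114 and 122 CPM with GSI. Both GSI libraries were lower than both DMSO libraries, and replicates were close. The means were 167 ± 3.33 and 118 ± 5.61 CPM (SD, n = 2), which corresponds to a log2 fold change of -0.50 (SE 0.0702) and a 1.41-fold lower level. RNA of the initiating receptor was lower while that of its protease partner F7 was higher. The level of F3 relative to F7 per exon length was 163 and 107 with DMSO, against 26.4 and 34.2 with GSI.

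Tfpi encodes tissue factor pathway inhibitor, which blocks factor Xa and the tissue factor complex. Tfpi (chromosome 2, 84432855 to 84476775, reverse strand) had 16.8 and 15.8 CPM with DMSO and 15.8 and 15.9 CPM with GSI. The 4 libraries were nearly level and the groups overlapped. Its log2 fold change of -0.04 had a 95% interval from -0.23 to 0.14. The level of F3 per exon length was 21.2 and 23.2 times that of Tfpi with DMSO and 15.7 and 16.6 times with GSI.

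Procr encodes the endothelial protein C receptor, which presents protein C to thrombin bound to thrombomodulin and also occurs on myeloid cells. Procr (ENSMUSG00000027611, chromosome 2, 155751117 to 155755471) had 2624 and 3642 counts in the DMSO libraries, against 7819 and 7109 in those with GSI, or 61.0, 64.2, 162 and 144 CPM. The GSI libraries did not overlap the DMSO libraries and both exceeded them clearly. Group means were 62.6 ± 2.27 and 153 ± 12.6 CPM (SD, n = 2). With a log2 fold change of 1.29 (SE 0.0760), the level was 2.44-fold higher, and the log2 value stayed between 1.20 and 1.37 when 1 library was left out. Thbd, which encodes thrombomodulin, moved the other way: it had 1.65 and 1.60 CPM with DMSO and 0.890 and 0.932 CPM with GSI. The log2 fold change of Thbd was -0.83 (SE 0.219, edgeR FDR = 0.00458). DESeq2 did not call Thbd (adjusted p = 0.0774).

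Because Procr and Vwf are also known from endothelial cells, the endothelial markers are given beside them. The 8 markers summed to 12.4 and 12.3 CPM with DMSO and 34.6 and 31.9 CPM with GSI. Nearly all of this was Kdr, at 10.5 and 10.3 CPM with DMSO and 33.4 and 30.8 CPM with GSI. Tek, Emcn and Cldn5 had 0 counts in every library, and Pecam1 was lower with GSI, with a log2 fold change of -1.01. Only 3 of the 8 markers were above 3 counts in every library. The part of Kdr-expressing cells in the values of Procr and Vwf was not tested.

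Plaur encodes the urokinase receptor, which holds urokinase at the cell surface. The gene (ENSMUSG00000046223, chromosome 7 from 24462484 to 24475968) had 255 and 272 CPM with DMSO and 126 and 147 CPM with GSI. Both GSI libraries lay well below the DMSO libraries. Means of 264 ± 12.2 and 136 ± 14.6 CPM (SD, n = 2) gave a log2 fold change of -0.95 (SE 0.0785) and a 1.94-fold lower level, and this was the largest decrease of the 8 genes tested.

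Plau, the gene of urokinase itself (chromosome 14, 20836660 to 20843385), had 148 and 179 CPM with DMSO and 125 and 154 CPM with GSI. The groups overlapped, since the higher GSI library exceeded the lower DMSO library. In both groups replicate 2 was the higher one. Its log2 fold change was -0.23 with a 95% interval from -0.43 to -0.03 and did not pass the FDR threshold. It ranged from -0.39 without GSI replicate 2 to -0.09 without GSI replicate 1, and Plau was called lower under 6 of 13 alternative fits, among them those without DMSO replicate 1 or GSI replicate 2. RNA of the receptor was lower relative to that of its ligand with GSI. Per exon length, the ratio of Plaur to Plau was 1.56 and 1.37 with DMSO, against 0.912 and 0.860 with GSI.

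Serpinb2 encodes plasminogen activator inhibitor 2, a serpin that activated monocytes and macrophages are known to make in large amounts. In these libraries, all taken after 1 hr of activation, it was low, and later times were not measured. It had 46 and 87 counts in the DMSO libraries, against 55 and 65 in those with GSI, or 1.07, 1.53, 1.14 and 1.32 CPM. Both GSI values lay between the DMSO values. A log2 fold change of -0.11 had a wide 95% interval, from -0.59 to 0.38, and its sign depended on single libraries, being -0.32 without DMSO replicate 1 and 0.20 without DMSO replicate 2.

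The rest of the pathway was read from 6 lists with 44 further genes. Of these, 20 passed the filter on low counts, 4 were higher and 5 lower with GSI, and their median log2 fold change was -0.116, beside 0.015 for all genes. The background shares are those given above, 19.0% higher and 21.9% lower. The 24 untested genes included prothrombin (F2), plasminogen (Plg), protein C (Proc) and the fibrinogen genes Fga, Fgb and Fgg. Of these 24 genes, 11 had 0 counts in every library and the others at most 32 counts over the 4 libraries. Plg, Fga, Fgb and Fgg were among those at 0, which allows a level of up to 0.0697 CPM per library.

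**Figure D4:**
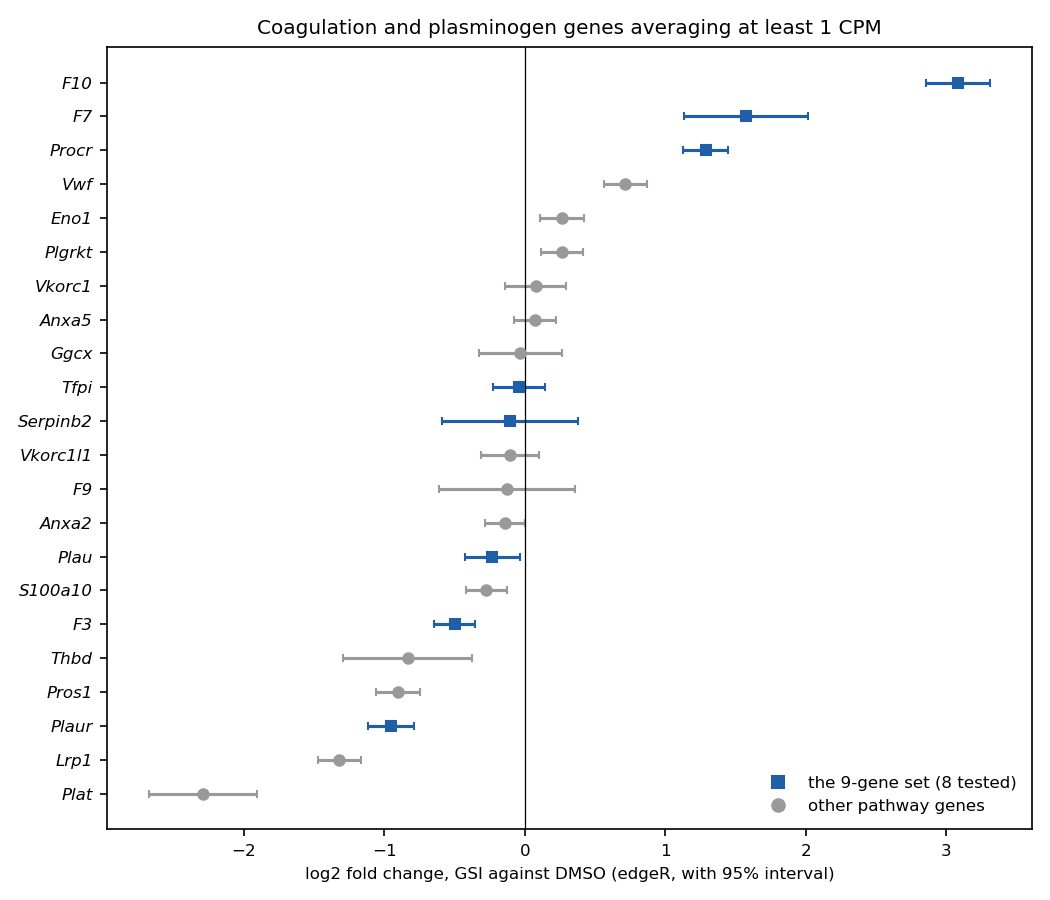
Log2 fold changes (GSI against DMSO) with 95% intervals from edgeR for the 22 tested coagulation and plasminogen genes that averaged at least 1 CPM: 8 of the 9 genes chosen through F10 (blue squares) and 14 others (grey circles). F10, F7, Procr and Vwf lie highest, and Plat, Lrp1, Plaur and Pros1 lowest.

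Among the plasminogen activators and their partners, the largest difference was that of Plat, the tissue-type activator. Plat had 345 and 330 counts in the DMSO libraries, against 79 and 58 in those with GSI, or 8.02, 5.82, 1.63 and 1.17 CPM. The groups were far apart, at a log2 fold change of -2.29 (SE 0.184, edgeR FDR = 5.27e-09). Lrp1, the endocytic receptor that clears complexes of activators with their inhibitors, had 533 and 531 CPM with DMSO and 204 and 222 CPM with GSI, a log2 fold change of -1.32 (SE 0.0729, edgeR FDR = 3.25e-11). Hence Plat and Plaur, the genes of an activator and a receptor, were both lower with GSI, as was Lrp1.

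Genes of proteins that bind plasminogen at the cell surface showed small differences of RNA in both directions. Plgrkt, a plasminogen receptor, rose by a log2 fold change of 0.27 (edgeR FDR = 0.00600), and Eno1, a glycolytic enzyme that also binds plasminogen, rose by 0.27 (edgeR FDR = 0.00779). S100a10, the partner of annexin A2, fell by 0.27 on the log2 scale (edgeR FDR = 0.00344). Anxa2 itself, at 353 and 361 CPM with DMSO and 320 and 328 CPM with GSI, did not pass, and 98 of its exon bases lie opposite another gene. Plgrkt lost its call without DMSO replicate 1 (adjusted p = 0.0576 from edgeR) and Eno1 without GSI replicate 2 (adjusted p = 0.0945). How reads shared between Eno1 and its pseudogenes were counted is not given in the sources used here.

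Among the other coagulation factors, 1 of 4 tested genes passed and was higher with GSI, against 19.0% of all tested genes. In edgeR 3 of the 4 had an unadjusted p under 0.05, and DESeq2 called 1. Vwf encodes von Willebrand factor, which carries factor VIII and tethers platelets. It had 30.5 and 30.9 CPM with DMSO and 50.0 and 50.7 CPM with GSI, so that the groups did not overlap. Its log2 fold change was 0.71 (SE 0.0737, edgeR FDR = 1.67e-07). The 8 platelet markers summed to 20.2 and 22.9 CPM with DMSO and 25.4 and 30.6 CPM with GSI, nearly all from Pf4. Of the 3 tested platelet markers, 2 were higher with GSI in edgeR, against 19.0% of all tested genes. These were Pf4, at a log2 fold change of 0.39, and Tubb1, with 3 and 6 counts with DMSO and 15 and 12 with GSI. The other tested marker, Itga2b, did not pass, at 0.535 and 0.617 CPM with DMSO and 0.455 and 0.405 CPM with GSI, and Gp1ba had 4 and 2 counts with DMSO and 0 and 0 with GSI. Gp1bb and Gp9 had 0 counts in every library, and the part of platelets or megakaryocytes in the value of Vwf was not tested. F9, with 1.09 and 1.20 CPM with DMSO and 0.993 and 1.11 CPM with GSI, did not pass.

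Of the further anticoagulant genes, 2 of 3 tested genes were lower in edgeR, against 21.9% of all tested genes. In DESeq2 1 of the 3 was lower, and Thbd was not called. That list leaves out Procr and Tfpi, which are described above. Procr was higher with GSI in edgeR, at a log2 fold change of 1.29, and Tfpi did not pass, at -0.04. Pros1 encodes protein S, the cofactor of activated protein C and a ligand of the receptor Mertk. It had 85.8 and 88.1 CPM with DMSO and 44.1 and 48.9 CPM with GSI. Its log2 fold change was -0.90 (SE 0.0749, edgeR FDR = 8.02e-09). Anxa5, at 699 and 711 CPM with DMSO and 760 and 725 CPM with GSI, did not pass.

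Factors VII and X need gamma-carboxylation by a vitamin K cycle before they can bind membranes. Of its 3 genes, Ggcx, Vkorc1 and Vkorc1l1, 0 passed in edgeR, 0 had an unadjusted p under 0.05 and 0 passed in DESeq2, and their log2 fold changes were -0.03, 0.08 and -0.11. The groups overlapped in each. RNA of the thrombin and factor Xa receptors was scarce: 2 of the 4 genes were tested, 0 passed in edgeR or in DESeq2, and 1 had an unadjusted p under 0.05. These were F2r, with 11 and 8 counts with DMSO and 17 and 19 with GSI, and F2rl2, with 29 and 29 against 28 and 15, both named after their values were seen. Serping1, an inhibitor of contact activation and complement that was named after its values were seen because it averaged under 1 CPM, had 9 and 16 counts in the DMSO libraries, against 41 and 46 in those with GSI, at a log2 fold change of 1.82 (SE 0.336, edgeR FDR = 2.01e-04).

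The genes nearest to F10 over the 4 libraries were Ubd, Nos2, Ly6i, Il23r and Saa3, with distances of 0.238, 0.253, 0.289, 0.306 and 0.443 between centred log2 CPM profiles, among 10956 candidates. Ubd had 17.1 and 16.5 CPM with DMSO and 135 and 110 CPM with GSI. With 4 libraries in 2 groups, this measure mostly reflects the size of the difference between the groups. The genes nearest to Plaur by the same measure were Cass4, Noct and Daglb, at distances of 0.0321, 0.0394 and 0.0475.

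Promoter sequence was examined because F10, F7 and Procr differed in one direction and F3 and Plaur in the other. RefSeq windows of 300 bases on GRCm38.p6 (250 before to 50 after the start of a transcript) were available for 8 of the 9 genes, as 11 windows, with none matched for Plau. On both strands, 9 motifs were searched. The AP-1 motif, TGANTCA, occurred in 5 of the 11 windows, those of F3, Plaur, Procr and Serpinb2, and in 7.8% of all 32851 windows. The 2 windows of Serpinb2 overlap, and the same AP-1 and TATA matches were counted in both. The matches began at positions -146 and -135 relative to the start of F3, -69 for Plaur and -154 for Procr, and none of these matches overlapped a match of another motif searched. F10 and F7 had none. The PU.1 core, GAGGAA, occurred in 6 of the 11 windows (F13a1, F7, Plaur and Tfpi) and 28.3% of all, and the C/EBP motif, TTGCNNAA, in 4 (Plaur, Procr and Serpinb2) and 10.8% of all. The TATA box letters, TATAAA, were in 4 of the 11 (F3, Serpinb2 and Tfpi) and 13.6% of all. The match of F3, at position 44, and that of Tfpi, at -127, were in reverse orientation. The forward match of Serpinb2 was at -29 and -116 in its 2 windows. The RBPJ core, TGGGAA, was in 2 (F13a1 and Tfpi) and 25.6% of all, and the E-box CACGTG in 1 (Tfpi) and 7.2% of all. The CRE core TGACGT, the NF-κB motif GGGRNNYYCC and the EGR motif GCGTGGGNG were in 0 of the 11 windows and in 7.5%, 8.5% and 1.9% of all. In these letters R is A or G, Y is C or T, and N is any base. Sites that depart from the letters were not searched, so a count of 0 does not exclude them. Thus 1 of the 3 genes that were higher and both that were lower held the AP-1 letters. A match is only a match of letters in these windows, and AP-1 was picked for display after the matches were seen. The 250 bases before the start of the 5 called genes are printed 5′ to 3′ on the forward strand, with the AP-1 letters in capitals, for F10 (chr8:13037058-13037307), F7 (chr8:13025784-13026033), Procr (chr2:155750967-155751216), F3 (chr3:121723287-121723536) and Plaur (chr7:24462233-24462482).
F10: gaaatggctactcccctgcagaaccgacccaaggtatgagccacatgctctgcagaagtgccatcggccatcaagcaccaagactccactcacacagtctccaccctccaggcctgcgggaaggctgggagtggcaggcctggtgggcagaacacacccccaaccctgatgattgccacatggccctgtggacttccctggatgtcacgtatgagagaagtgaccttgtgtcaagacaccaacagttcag
F7: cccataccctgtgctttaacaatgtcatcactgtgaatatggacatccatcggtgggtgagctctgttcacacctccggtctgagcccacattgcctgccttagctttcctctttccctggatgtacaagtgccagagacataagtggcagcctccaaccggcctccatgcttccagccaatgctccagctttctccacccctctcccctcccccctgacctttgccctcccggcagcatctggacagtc
Procr: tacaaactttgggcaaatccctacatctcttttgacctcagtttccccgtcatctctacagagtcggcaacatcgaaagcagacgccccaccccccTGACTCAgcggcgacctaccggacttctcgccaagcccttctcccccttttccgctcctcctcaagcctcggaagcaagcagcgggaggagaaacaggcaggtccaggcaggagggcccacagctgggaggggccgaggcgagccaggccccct
F3: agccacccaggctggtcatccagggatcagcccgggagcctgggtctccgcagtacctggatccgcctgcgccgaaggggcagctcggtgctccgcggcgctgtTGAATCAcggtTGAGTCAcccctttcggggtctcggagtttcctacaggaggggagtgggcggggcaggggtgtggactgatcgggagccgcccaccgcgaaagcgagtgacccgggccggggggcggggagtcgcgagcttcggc
Plaur: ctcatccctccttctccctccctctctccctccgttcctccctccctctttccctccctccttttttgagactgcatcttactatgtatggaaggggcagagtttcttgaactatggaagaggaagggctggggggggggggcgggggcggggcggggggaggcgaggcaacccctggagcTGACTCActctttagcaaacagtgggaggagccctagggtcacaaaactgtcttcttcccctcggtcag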

How the data were processed

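The study's authors prepared strand-specific poly(A) libraries, sequenced them on an Illumina instrument, trimmed adapters with Trimmomatic, aligned reads to mm10 with STAR (2.5.0a in the submitters' processing notes) and used HTSeq for counting. The deposited values are raw counts per gene for 16 columns, without normalization, and all were used. The HTSeq mode and strand setting are not given in the sources used here. Columns were mapped by title, and the 4 columns of a replicate, taken as sequencing runs, were summed. Over the genes of the set their chi-square per degree of freedom was 0.0197 to 3.10 in 31 comparisons.

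The summed counts were tested under R 4.3.3 by the quasi-likelihood method of edgeR 4.0.16, with filterByExpr, TMM factors, group as the factor and p-values adjusted after Benjamini and Hochberg over 13211 genes. SE was the log2 fold change divided by the square root of F. With 2 libraries per group, a two-sided exact permutation test of a single gene cannot pass 0.05, since its smallest p is 0.333. Exon lengths and positions came from GENCODE M21 on GRCm38, which held 98.95% of the gene IDs. Scripts were tested on simulated data. The 9 genes, the pathway lists and the alternatives (DESeq2 1.42.0, scaling, filters, likelihood ratio test, replicate block, separate runs, genes free of opposite-strand exons, each library left out) were chosen with earlier results of these data known. Genes named are the 9, listed pathway genes averaging at least 1 CPM, the neighbours of F7 and F10, and the nearest profiles. Some markers of cell types and some untested pathway genes are named as well, and other exceptions are marked. The planned comparison of protein sequences was not made, and a few genes are not reported here and were left out of the lists and their counts.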

Additional observations from a re-analysis of the deposited data

How the results depend on the processing

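The calls of F10, F7, Procr, F3 and Plaur held under all 13 alternatives, with log2 fold changes from 2.99 to 3.18, 1.32 to 1.96, 1.20 to 1.37, -0.55 to -0.45 and -1.07 to -0.85. Plau was called lower under 6 of them: without normalization factors (log2 fold change -0.2365), without a filter (-0.2223), with the replicate block (-0.2305), with 16 separate runs (-0.2302), without DMSO replicate 1 (-0.3636) and without GSI replicate 2 (-0.3892). The cause was not tested. The log2 fold change of Serpinb2 ranged from -0.3218 to 0.1958 and that of Tfpi from -0.0893 to 0.0003 when 1 library was left out, so that their signs changed, without a call. A fit on 3 libraries assumes that the lone library varies like the other group. The other pathway genes gave 3 to 4 higher and 4 to 7 lower calls. Replicate numbers are not known to pair the samples; differences between replicates correlated by 0.155 between the groups, and apart from Plau the replicate block changed only the call of F5 among the pathway genes, named after its values were seen (log2 fold change -0.59, edgeR adjusted p = 0.0488). The replicate block raised the calls over all genes from 5392 to 6444. F5 was also called lower in other fits, among them the likelihood ratio test and the 16 separate runs. Scaling moved the median log2 fold change of all tested genes by at most -0.007. DESeq2 moved it by -0.020, but over 21723 genes rather than 13211, so tool and gene set differed together. F13a1 and 24 of the 44 pathway genes had too few counts to be tested, and the effect of depth on the other values was not tested.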
